A study of Mus musculus with 18 samples.

Results

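The genes described here are 10 that act at ovulation and in the expansion of the cumulus, the layer of cells that surrounds the oocyte: Ptgs2, Ereg, Areg, Btc, Tnfaip6, Has2, Ptx3, Il6, Edn2 and Snap91. Each was represented by a transcript cluster of the array, a group of probes summarised to 1 value, that the platform annotation assigned to that gene alone. This held for 9 of the 10 among 22180 genes measured in all. Areg, the EGF-like ligand amphiregulin, had no cluster naming it alone and is not analysed here. Ereg had 2 such clusters, of which the one with the higher mean over the 18 arrays was used. A further cluster shared by Has2 and its antisense transcript was left out. The choice of cluster used no treatment or ovulation value.

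Ovulation is set off by luteinizing hormone (LH), which acts on the granulosa cells lining the follicle and makes them release the EGF-like ligands amphiregulin, epiregulin and betacellulin. These ligands activate the EGF receptor on cumulus cells, which then switch on prostaglandin synthesis and build a matrix of hyaluronan around the oocyte. Endothelin, made late in this sequence in granulosa cells of mice, contracts the follicle wall at rupture.

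The study asked how transport stress affects superovulation in female BABL/c mice (strain spelled as labelled), taken as 10 pairs of littermates and split at random between a stress and a control group. Transport of the stress group covered 1000 km and lasted close to 10 h, at a mean speed of 50 km/h, whereas control mice stayed behind in the same housing. The mice were chosen at 6 weeks of age, and all of both groups were superovulated at 9 weeks and their oviductal oocytes counted. Within each group and tissue, the high array was that of the mouse with the most oocytes, the low array that of the mouse with the fewest, and the pool array that of the 8 remaining mice mixed. Ovary, hypothalamus and pituitary therefore each had 3 stress and 3 control arrays, with 1 stressed and 1 control mouse behind each high and each low value. The tissues of a class came from the same mouse or pool. So few arrays limit how precise any value is. In fits without class as a term, p-values measure the spread between arrays of different classes, pools included. Where class and treatment are both terms, they measure how unevenly a difference repeats over the classes or treatment groups. In whole tissue, fewer cells of a type and less RNA per cell cannot be told apart. The counted oocytes were already in the oviduct, so the ovary values need not describe the cumulus that surrounded them.

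Marker genes placed the arrays in their labelled tissues. In ovary, 7 of 11 granulosa and cumulus markers, 6 of 7 luteal, 5 of 7 theca and stroma and 8 of 8 oocyte markers exceeded, in each ovary array, their highest value in hypothalamus and pituitary. Some pools stood apart in markers of other tissues. The stressed pools of hypothalamus and pituitary carried high levels of the luteal markers, and both ovary pools carried prolactin (Prl), a hormone of the pituitary, at log2 signals of 11.44 in stress and 10.82 in control, while the ovaries of the 4 single mice read 3.63 to 5.09. Results are therefore also given for single mice alone. Single mice were not free of such signals. In hypothalamus, Prl read 9.26 in the control low mouse and 8.68 in the stressed high mouse, against 7.69 in the control pool and 6.80 in the stressed pool. All values are deposited log2 signals, and a difference of 1 is a 2-fold change.

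In ovary, no gene passed the test of stress against control, members included. The highest positive differences among the members were those of Ptgs2, Ereg and Il6, with Btc next, and all 4 were higher under stress in each of the 3 ovulation classes. The hyaluronan matrix genes Has2, Tnfaip6 and Ptx3, and Edn2 and Snap91, were not of 1 sign over the classes. For 4 of 9 members, Il6, Btc, Has2 and Ptx3, the ovary mean lay below the median of all genes, so their signals were dim. In limma, 0 of 22180 genes (0%) passed an adjusted p of 0.05, 592 had an unadjusted p under 0.05 (344 higher and 248 lower under stress), and 3 of the 9 members were among those.

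Ereg encodes epiregulin, an LH-induced ligand of the EGF receptor. Its ovary signal was 9.20 in the high mouse, 10.28 in the low mouse and 9.45 in the pool of the stress group, against 8.90, 8.03 and 8.93 in the high mouse, low mouse and pool of the control group. All 3 stress arrays lay above all 3 control arrays, and the stressed low mouse was the highest of the 6. The groups of no other member were separated in this way, and 8.77% of all genes had groups that did not overlap in either direction. Ereg averaged 9.64 ± 0.57 in stress and 8.62 ± 0.51 in control (SD, n = 3 arrays each), a difference of 1.03 (SE 0.34, 95% confidence interval 0.26 to 1.79) or 2.04-fold. The class differences were 0.29 (high), 2.26 (low) and 0.53 (pool), so the low class gave the largest. The limma p was 0.0146 before and 0.999 after adjustment, and the gene ranked 112 of 22180 by p. The second, dimmer Ereg cluster read 5.32, 5.89 and 5.71 in stress and 5.38, 5.25 and 5.58 in control, and here the groups overlapped. With the mean of the gene's clusters the difference was 0.63.

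Ptgs2 encodes the inducible cyclooxygenase that makes the precursor of prostaglandins in the follicle. It read 8.24, 8.83 and 9.24 in the high mouse, low mouse and pool of the stress group, against 7.46, 6.27 and 8.80 in those of the control group. The control low mouse was the lowest of the 6 arrays by more than 1 log2 unit, and the control pool lay inside the stress range. The mean was 8.77 ± 0.50 in stress and 7.51 ± 1.26 in control (SD, n = 3 each), a difference of 1.26 (SE 0.55, interval 0.00 to 2.52) or 2.40-fold. Class by class it was 0.79 (high), 2.56 (low) and 0.44 (pool). In limma the p was 0.0498 before and 0.999 after adjustment. Without the control low mouse the difference was 0.64, and without the control pool 1.91.

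Il6 encodes interleukin 6, a cytokine that cumulus cells make in response to EGF-like ligands. Its signal was 4.31, 4.12 and 4.79 in the high mouse, low mouse and pool under stress, against 3.06, 3.38 and 4.39 in those of the control group. This was a dim signal, with an ovary mean of 4.01 that exceeded those of 24.4% of all genes. The single mice of the 2 groups did not overlap, whereas the control pool exceeded both stressed single mice. The difference was 0.80 (SE 0.34, interval 0.02 to 1.57) or 1.74-fold, with class values of 1.26 (high), 0.74 (low) and 0.39 (pool). The limma p was 0.0457, and 0.999 after adjustment. Without the control high mouse the difference was 0.52, and without the control pool 1.19.

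Btc encodes betacellulin, the third of the LH-induced EGF-like ligands. It read 5.01, 5.09 and 5.36 in stress against 4.64, 4.57 and 5.05 in control (high mouse, low mouse, pool). The ovary mean of 4.95 exceeded those of 41.1% of all genes. The control pool lay just inside the stress range, and the other control arrays lay below it. Its class differences were close to each other, at 0.37 (high), 0.52 (low) and 0.32 (pool), with a mean of 0.40 (SE 0.20, interval -0.06 to 0.86) and a limma p of 0.0789 before and 0.999 after adjustment.

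**Figure D1:**
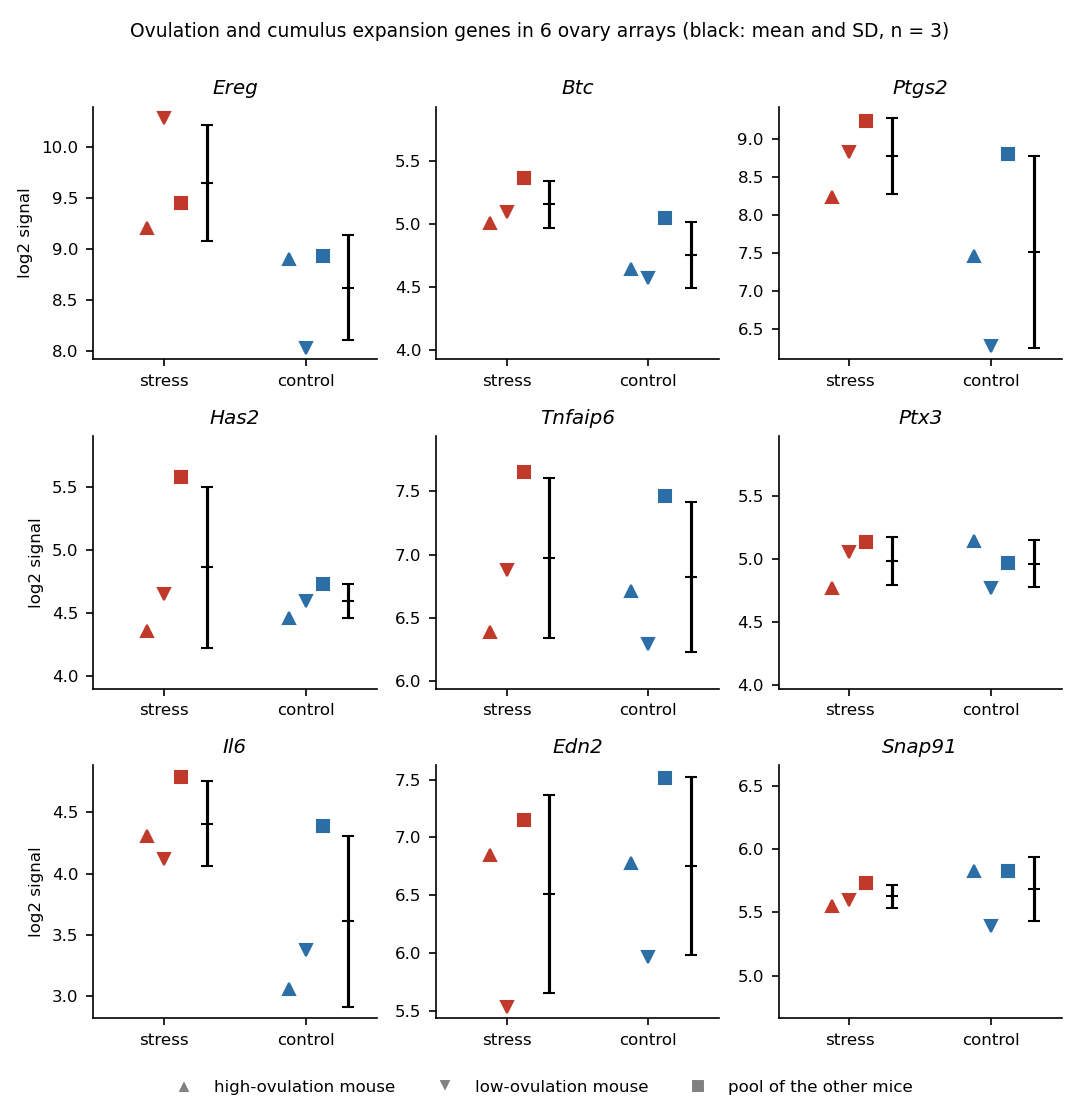
Log2 signal of the 9 measured members in the 6 ovary arrays, 1 panel per gene, with stress left of control, high, low and pool arrays as separate points, and the mean ± SD (n = 3) in black; each panel has its own axis range. Ereg is the member whose stress points (9.20 to 10.28) lie wholly above its control points (8.03 to 8.93), and Edn2 has its lowest point in both groups in the low mouse.

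The matrix genes gave smaller differences. Has2, the synthase of cumulus hyaluronan, read 4.36, 4.65 and 5.58 in stress against 4.46, 4.60 and 4.73 in control (high mouse, low mouse, pool). The stressed pool stood above all other arrays and the rest overlapped, so the mean difference of 0.27 (SE 0.30) was -0.02 in single mice. Tnfaip6, which transfers protein chains onto hyaluronan, read 6.39, 6.88 and 7.65 in stress against 6.71, 6.29 and 7.46 in control, a difference of 0.15 (SE 0.37). Its low class differed by 0.59 and its high class by -0.32. Ptx3, the pentraxin that holds the chains of the matrix together, read 4.77, 5.05 and 5.13 in stress against 5.14, 4.77 and 4.97 in control, a difference of 0.02 (SE 0.19) with overlapping groups.

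Edn2 encodes endothelin 2, the peptide that contracts the follicle wall in mice. It read 6.85, 5.54 and 7.15 in the high mouse, low mouse and pool of the stress group, against 6.78, 5.97 and 7.51 in those of the control group, a difference of -0.24 (SE 0.48). Here the order of the classes was the same in both groups and the groups overlapped. Snap91, an adaptor for clathrin-coated vesicles known mainly from nerve terminals, read 5.55, 5.60 and 5.73 in stress against 5.83, 5.39 and 5.83 in control, a difference of -0.06 (SE 0.19). Its 6 ovary values overlapped within 0.45 log2 units.

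Over the 9 members, 7 had a positive mean difference and the median was 0.27, beside a median of -0.02 and 46.8% positive over all genes. Differences positive in all 3 classes were seen for 4 of 9 members and for 17% of all genes. The members' median was 0.07 in the high class, 0.52 in the low class and 0.32 in the pools, so the class with the fewest oocytes gave the largest. In that class 8 of 9 members were higher in the stressed mouse, with Edn2 the exception. The control low mouse was the lowest of the 6 ovary arrays for 5 of 9 members, and the stressed pool the highest for 5 of 9. The shares of all genes with these extremes, or higher in the stressed low mouse, were not computed, so the counts are not read as particular to the members. The number of members with a positive mean difference moved with single arrays. It was 4 of 9, with a median of -0.06, without the stressed pool. Without the control low mouse it was 5 of 9 (median 0.27), and without the control pool 9 of 9 (median 0.47). In single mice alone, 5 of 9 were positive with a median of 0.13, and the differences were 1.67 for Ptgs2, 1.28 for Ereg, 1 for Il6 and 0.44 for Btc.

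With the ovulation class as a block, which takes out the level shared by the arrays of a class, the unadjusted limma p was 0.00424 for Il6, 0.0147 for Ptgs2, 0.0183 for Btc and 0.0279 for Ereg. None of the 22180 genes passed after adjustment in that limma fit (0 genes, with 2198 at an unadjusted p under 0.05), and the adjusted p of these 4 members was 0.499. The mean of 11 granulosa and cumulus markers was 7.67, 7.89 and 8.46 in the high mouse, low mouse and pool of the stress group, against 8.12, 7.55 and 8.47 in those of the control group. This mean was also lowest in the control low mouse, and within the low class it was higher under stress, as were Ereg and Ptgs2. In the high class it was lower under stress, whereas Ereg and Ptgs2 were higher. Between the pools it was nearly equal, and Ereg and Ptgs2 were again higher under stress. The mean of 8 oocyte markers ran from 5.83 to 7.34 in stress and from 5.62 to 7.10 in control, and that of 9 leukocyte markers from 5.48 to 5.79 in stress and from 5.56 to 5.81 in control. The part of these cell types in the members' differences was not tested.

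**Figure D2:**
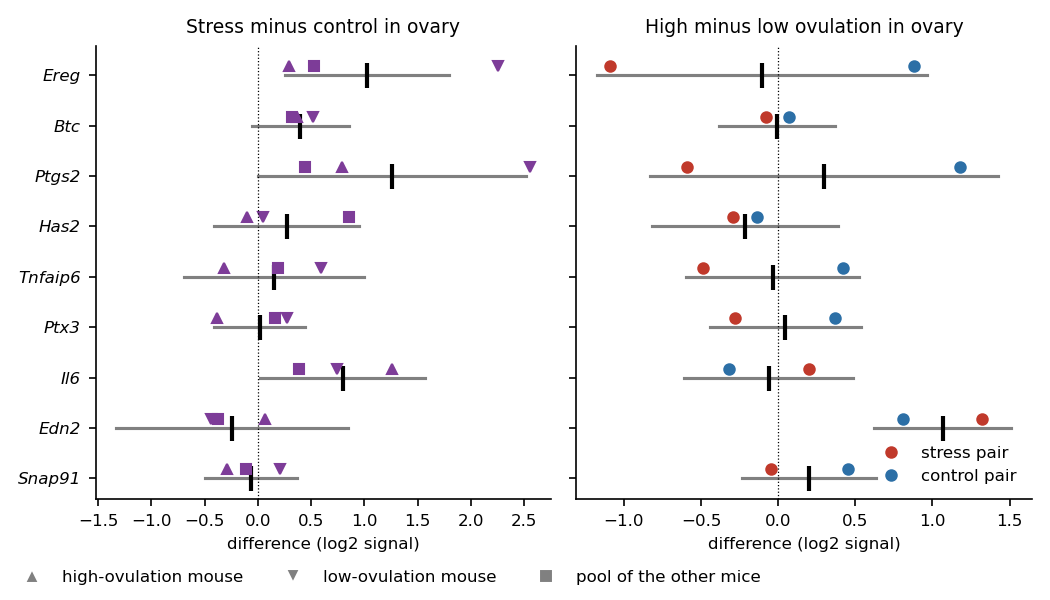
Differences in ovary (log2 signal) of each member, stress minus control on the left with 1 point per ovulation class, and high minus low on the right with 1 point per treatment group; black ticks are means and grey lines 95% confidence intervals from limma. On the left all 3 points of Ptgs2, Ereg, Il6 and Btc lie above 0, with the low class farthest for Ptgs2 (2.56) and Ereg (2.26), and on the right the interval of Edn2 (0.62 to 1.51) lies above 0.

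The promoters of Ptgs2, Il6 and Btc are shown because these are the members with a listed sequence that were higher under stress in all 3 classes, and that of Edn2 because it had the clearest difference by ovulation class. They come from RefSeq on build GRCm38.p6 and run from 250 bases before to 50 bases after the transcript start, 5′ to 3′ on the gene's strand. The tables held such a sequence for 7 of the 9 measured members. Capitals mark the core of the cyclic AMP response element (TGACG, or CGTCA on the other strand) and the E-box CACGTG. Cyclic AMP is the messenger that LH raises in granulosa cells.
Ptgs2 (chr1:150099781-150100080, + strand): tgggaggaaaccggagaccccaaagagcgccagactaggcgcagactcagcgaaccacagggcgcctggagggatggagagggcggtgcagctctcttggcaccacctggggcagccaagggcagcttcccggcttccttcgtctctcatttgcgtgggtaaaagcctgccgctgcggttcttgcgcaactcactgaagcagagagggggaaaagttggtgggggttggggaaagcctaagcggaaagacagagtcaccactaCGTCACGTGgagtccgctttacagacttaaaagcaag
Il6 (chr5:30012864-30013163, + strand): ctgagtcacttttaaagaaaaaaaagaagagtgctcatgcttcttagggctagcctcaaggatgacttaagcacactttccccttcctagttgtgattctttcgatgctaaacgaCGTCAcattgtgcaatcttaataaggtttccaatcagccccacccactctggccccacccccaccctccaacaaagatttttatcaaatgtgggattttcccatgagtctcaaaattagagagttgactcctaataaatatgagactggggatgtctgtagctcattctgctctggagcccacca
Btc (chr5:91402945-91403244, - strand): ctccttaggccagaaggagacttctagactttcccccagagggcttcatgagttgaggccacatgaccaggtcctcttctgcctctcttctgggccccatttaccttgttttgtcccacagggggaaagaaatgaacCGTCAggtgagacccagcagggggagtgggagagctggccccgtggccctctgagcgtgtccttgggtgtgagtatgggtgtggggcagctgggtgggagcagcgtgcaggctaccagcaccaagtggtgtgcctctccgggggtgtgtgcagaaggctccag
Edn2 (chr4:120160956-120161255, + strand): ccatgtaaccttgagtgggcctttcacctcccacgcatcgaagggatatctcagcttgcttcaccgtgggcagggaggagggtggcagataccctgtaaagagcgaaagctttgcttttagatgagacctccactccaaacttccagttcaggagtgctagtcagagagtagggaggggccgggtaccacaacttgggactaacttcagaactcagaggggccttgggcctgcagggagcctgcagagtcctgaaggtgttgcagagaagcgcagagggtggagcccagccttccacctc
In Ptgs2 the core and the E-box overlapped, at bases 14 to 18 and 17 to 22 after the start. The core lay at -135 to -131 in Il6 and at -113 to -109 in Btc. It was found in these 3 promoters and in 0 of the 4 others of measured members (Tnfaip6, Ptx3, Edn2 and Snap91), and in 20.8% of 32851 mouse promoters of the same length. Areg, which was not measured, also has a listed promoter, with 3 matches to the core. Those at -61 to -57 and -58 to -54 overlap on opposite strands of 1 full element, TGACGTCA, which was present in 1.79% of all promoters. The E-box was present in 7.15% of all promoters. Of the other motifs searched on both strands, the AP-1 site TGANTCA (7.81% of promoters) was found in Tnfaip6 and Il6, and the NF-kB site, searched by its consensus, (1.63%) in Il6. The motifs were chosen with the members' values known, and a match is a description of the letters only.

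The pathways around these genes were described by 5 lists. None of their genes passed in the stress comparison (adjusted p = 0.999 in limma for each gene named), and 1 of them had an unadjusted p under 0.05. Of the EGF receptor network, 5 of 11 measured genes had positive differences (median -0.02), among them the ligand-releasing proteases Adam10 (0.30) and Adam17 (0.26) and the receptor Erbb4 (0.32). The ligand Egf had the smallest p of this list and was lower under stress in each class, at -0.31 (SE 0.18), though by only -0.02 in the pools. Egf (4.05 to 4.68) and Erbb4 (4.09 to 4.82) were dim in ovary, where the median over all genes was 5.53. Of the prostaglandin genes 5 of 11 were positive (median -0.01). Pla2g4a, the phospholipase that frees arachidonic acid for Ptgs2, differed by 0.44 (SE 0.21) and was higher under stress in each class, and Hpgd, which breaks prostaglandins down, by 0.36 (SE 0.22). Ptges, a prostaglandin E synthase, was lower in each class, at -0.27 (SE 0.31).

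Of the hyaluronan and matrix genes 8 of 14 were positive (median 0.04). Vcan, the hyaluronan-binding proteoglycan versican, differed by 0.33 (SE 0.19) and Hmmr, a hyaluronan receptor, by 0.52 (SE 0.30), both positive in each class. Hapln1, a link protein that ties hyaluronan to proteoglycans, differed by -0.47 (SE 0.32). Hmmr (4.31 to 5.59) and Hapln1 (3.85 to 5.24) were dim in ovary. Of the endothelin and IL-6 receptor genes 5 of 11 were positive (median -0.03), with Il6st, the signalling subunit of the IL-6 receptor, at 0.33 (SE 0.18). Of 27 other LH-responsive genes 17 were positive (median 0.02). The gene with a p under 0.05 was Star, which carries cholesterol into mitochondria for steroid synthesis: it read 12.14, 12.32 and 12.04 in stress against 11.81, 11.73 and 11.78 in control (high mouse, low mouse, pool). The Star groups did not overlap, and the difference was 0.40 (SE 0.17), with a limma p of 0.0427 before and 0.999 after adjustment. Lhcgr, the LH receptor, had no cluster naming it alone.

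The ovulation classes ask which genes differed between the mouse with the most and the mouse with the fewest oocytes, once in each treatment group. Among the members, Edn2 alone had an unadjusted p under 0.05. Its signal in ovary was 6.85 in the stressed high mouse and 5.54 in the stressed low mouse, and 6.78 in the control high mouse and 5.97 in the control low mouse. The 2 pools, at 7.15 in stress and 7.51 in control, lay above all 4 single mice. High minus low was 1.32 in the stress group and 0.81 in the control group, with a mean of 1.07 (SE 0.19, interval 0.62 to 1.51) or 2.09-fold. The limma p was 9e-04, rank 32 of 22180, and the adjusted p was 0.408, so Edn2 did not pass. In that limma comparison 0 genes (0%) passed and 2382 had an unadjusted p under 0.05. Leaving out each array in turn gave differences of 0.83 to 1.30, and the adjusted p ran from 0.0681, with a mean-variance trend and robust moderation, to 0.616 over all alternatives.

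Of the 8 other members, 7 had opposite signs of high minus low in the treatment groups, and Has2 did not. Ereg gave -1.09 in the stress group and 0.88 in the control group, with the stressed low mouse as the highest array and the control low mouse as the lowest. Ptgs2 gave -0.59 in the stress group and 1.18 in the control group. Tnfaip6 (-0.49 in stress, 0.42 in control) and Ptx3 (-0.28 in stress, 0.37 in control) had the same pattern with smaller values. Btc (-0.08 in stress, 0.07 in control) and Snap91 (-0.05 in stress, 0.45 in control) lay near 0 in the stress group. Has2 was negative in both (-0.29 in stress, -0.14 in control), and Il6 was positive in stress (0.20) and negative in control (-0.32).

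Negative in stress and positive in control was thus the pattern of 6 of 9 members and of 23.9% of all genes. High minus low had the same sign in both groups for 2 of 9 members, Edn2 and Has2, and for 56.1% of all genes. It differed between the groups by more than 1 log2 unit for 2 of 9 members, Ereg and Ptgs2, and for 5.99% of all genes. With 1 mouse behind each of these values, the difference between the groups has no replicate and was not tested. It equals the stress difference of the high class minus that of the low class, so it restates the values given above for those classes.

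**Figure D3:**
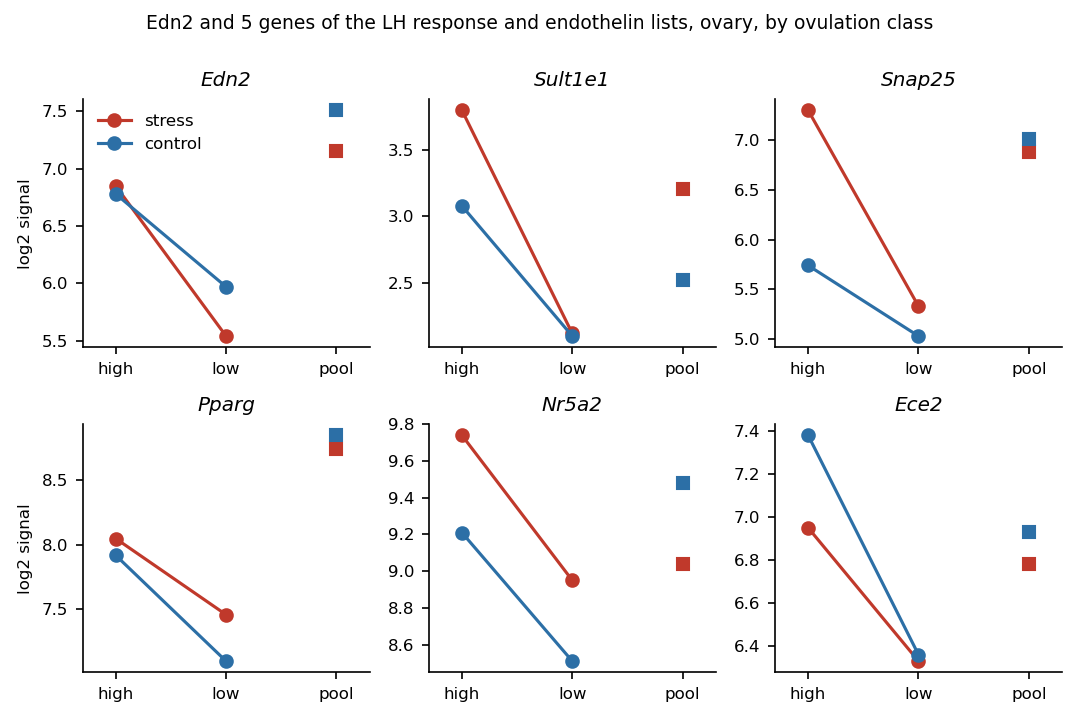
Log2 signal in ovary of Edn2 and 5 genes of the LH response and endothelin lists in the high mouse, low mouse and pool of each treatment group. In both groups the high mouse lies above the low mouse for all 6 genes. The 5 list genes were taken from those of smallest p in this same comparison, and only genes with a positive difference are shown. Over the whole lists, high minus low was positive for 16 of 27 LH response genes and for 3 of 11 endothelin and IL-6 receptor genes. For Edn2 the pools (7.15 in stress, 7.51 in control) lie above the single mice.

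No gene of the 5 lists passed in high against low, and the lowest adjusted p among them was 0.408 in limma. Sult1e1 and Snap25 of the LH response list had the largest differences in the 5 lists. Sult1e1, the estrogen sulfotransferase, gave 1.68 in the stress group and 0.98 in the control group, with a mean of 1.33 (SE 0.22) and a limma p of 0.000618 before and 0.408 after adjustment. Its signals were dim, at 3.80 in the stressed high mouse and 2.12 in the stressed low mouse, and 3.08 in the control high mouse and 2.10 in the control low mouse. Snap25, a protein of vesicle fusion, gave 1.97 in stress and 0.71 in control (mean 1.34, SE 0.38), and the nuclear receptors Nr5a2 and Pparg averaged 0.74 (SE 0.26) and 0.70 (SE 0.18). Like Edn2, Pparg was highest in both pools and lowest in both low mice.

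In the other lists, Ece2, an enzyme that cuts endothelin from its precursor, gave 0.63 in stress and 1.02 in control, with a mean of 0.82 (SE 0.17) and a limma p of 0.00227 before and 0.408 after adjustment. Hmmr was higher in the high mouse of both groups, with a mean of 0.69 (SE 0.20). Fn1, the matrix protein fibronectin, averaged -0.55 (SE 0.17), Itih2, a donor of protein chains for Tnfaip6, -0.48 (SE 0.17), Stat3, which carries the IL-6 signal, -0.52 (SE 0.15) and Ptger3, a prostaglandin E receptor, -0.54 (SE 0.19), each of them negative in both groups. Hmmr and Ptger3 were dim in ovary, the latter at 4.65 to 5.60. The granulosa and cumulus marker mean was 7.67 in the stressed high mouse and 7.89 in the stressed low mouse, and 8.12 in the control high mouse and 7.55 in the control low mouse, so its direction differed between the groups, unlike that of Edn2. Of the 11 markers, 7 had a positive mean high minus low (median 0.12) and 3 had an unadjusted p under 0.05. They did not share a direction: Gatm, a creatine synthesis enzyme, was at -0.52 (SE 0.15, limma p of 0.0133 before and 0.408 after adjustment), and Amh, the anti-Müllerian hormone, at -0.29. Fshr, the receptor for follicle-stimulating hormone on granulosa cells, had the order of arrays by class that Edn2 had: it read 7.04 in the stressed high mouse and 6.43 in the stressed low mouse, and 7.19 in the control high mouse and 5.93 in the control low mouse, with pools of 7.56 in stress and 7.84 in control. It was picked from the list after its values were seen. Its mean difference was 0.93 (SE 0.22), with a limma p of 0.00464 before and 0.408 after adjustment. The part of granulosa cell content in the Edn2 difference was not tested.

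Across tissues, most members were highest in ovary. In a limma fit of all 18 arrays with the animal or pool as a block, ovary minus hypothalamus passed as higher for 7 of 9 members (25.7% of all genes) and as lower for 1 (21.5%). Ovary minus pituitary passed as higher for 8 of 9 members (21.8% of all genes) and as lower for 1 (19.2%). The lower one was Snap91 in both. Il6, Btc, Has2 and Ptx3 had means below the median of all genes in every tissue. With dim genes left out, 3 members were tested, of which 2 passed as higher and 1 as lower in each comparison.

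Ereg ran from 8.03 to 10.28 in ovary, from 4.81 to 6.41 in hypothalamus and from 4.56 to 6.35 in pituitary. Every ovary array lay above every array of the other tissues, by a mean of 3.88 (SE 0.26, adjusted p = 2.87e-10 in limma) over hypothalamus and 3.95 (SE 0.26, adjusted p = 5.16e-10) over pituitary. In the second, dimmer Ereg cluster ovary was also apart, but by less. It ran from 5.25 to 5.89 in ovary, 4.40 to 4.99 in hypothalamus and 4.14 to 4.91 in pituitary. With the mean of the gene's clusters the excess was 2.32 over hypothalamus and 2.42 over pituitary. Ptgs2 ran from 6.27 to 9.24 in ovary, 4.15 to 5.62 in hypothalamus and 3.77 to 5.60 in pituitary, and ovary was again apart, by 3.44 (SE 0.32) and 3.47 (SE 0.32). These were the members with the largest excess in ovary over hypothalamus.

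Tnfaip6 differed from them in its second tissue. It ran from 6.29 to 7.65 in ovary, 5.90 to 6.44 in hypothalamus and 3.12 to 5.07 in pituitary, so ovary overlapped hypothalamus but not pituitary. Ovary exceeded hypothalamus by 0.82 (SE 0.24, adjusted p = 0.00791 in limma) and pituitary by 3.06 (SE 0.24, adjusted p = 4.28e-09). The smaller of these did not pass in single mice (0.46, adjusted p = 0.0612 in limma) or without the control pool (0.65, adjusted p = 0.0638).

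Edn2 ran from 5.54 to 7.51 in ovary, 4.46 to 5.04 in hypothalamus and 4.77 to 5.35 in pituitary, without overlap between ovary and the others, and exceeded them by 1.82 (SE 0.22) and 1.60 (SE 0.22). Il6 ran from 3.06 to 4.79 in ovary, 2.11 to 3.33 in hypothalamus and 1.81 to 2.98 in pituitary, with ovary higher by 1.51 (SE 0.26) and 1.57 (SE 0.26). Its ovary arrays overlapped those of hypothalamus and not those of pituitary. Il6 was dim in every tissue, with means above those of 24.4% of all genes in ovary, 6.7% in hypothalamus and 5.5% in pituitary. Ptx3 ran from 4.77 to 5.14 in ovary, 4.15 to 4.62 in hypothalamus and 4.02 to 4.62 in pituitary, a narrow but complete separation of 0.57 (SE 0.12) and 0.55 (SE 0.12). For these 3 genes hypothalamus and pituitary overlapped each other.

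Btc ran from 4.57 to 5.36 in ovary, 4.20 to 4.59 in hypothalamus and 4.18 to 4.63 in pituitary, with an excess in ovary of 0.58 (SE 0.13) and 0.50 (SE 0.13). In single mice its excess over pituitary was 0.24 and did not pass (adjusted p = 0.235 in limma). Has2 ran from 4.36 to 5.58 in ovary, 3.87 to 4.61 in hypothalamus and 3.86 to 4.52 in pituitary, and overlapped both. It did not pass against hypothalamus (0.41, adjusted p = 0.0695 in limma) and passed narrowly against pituitary (0.49, adjusted p = 0.0352). That call was lost in single mice (0.12, adjusted p = 0.599), without the animal block (adjusted p = 0.0609) and when any of 4 animals or pools was left out: the stressed pool (0.24), the control pool (0.37), the control low mouse (0.53) or the control high mouse (0.56).

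Snap91 had the reverse order. It ran from 5.39 to 5.83 in ovary, 10.35 to 10.78 in hypothalamus and 7.72 to 8.91 in pituitary, with no overlap between any of the tissues. Ovary differed from hypothalamus by -4.95 (SE 0.14, adjusted p = 2.49e-15 in limma) and from pituitary by -2.57 (SE 0.14, adjusted p = 3.58e-11). In all, every ovary array lay above every hypothalamus array for 4 of 9 members (16.5% of all genes) and below for 1 (15.4%). Against pituitary it lay above for 6 of 9 members (11.6%) and below for 1 (10.2%).

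**Figure D4:**
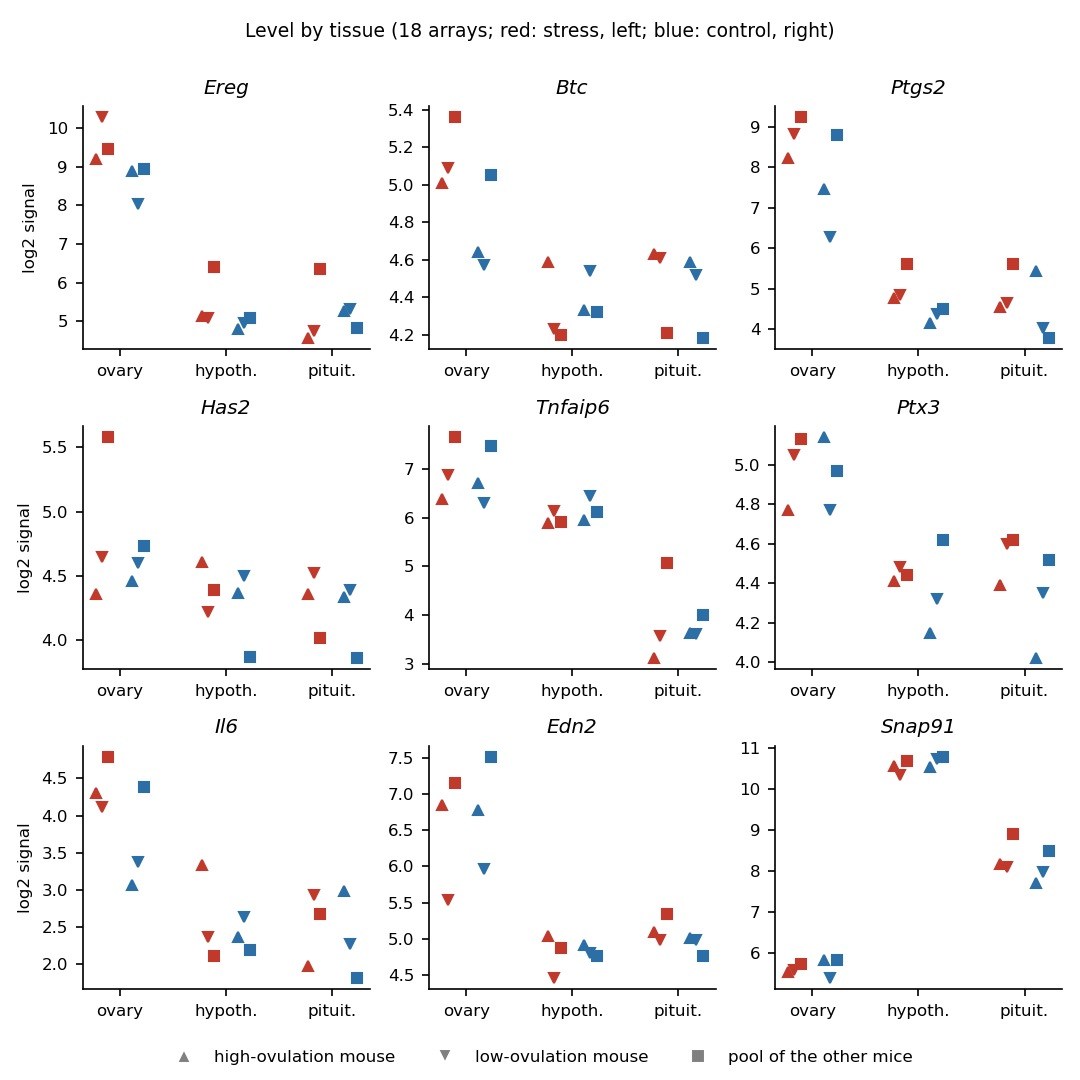
Log2 signal of the 9 members in ovary, hypothalamus and pituitary, 1 panel per gene and 1 point per array, stress and control marked separately. Snap91 is the member with its lowest values in ovary (5.39 to 5.83), and the ovary points of Ereg, Ptgs2, Ptx3 and Edn2 lie above all points of both other tissues.

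In the other tissues the stress comparison passed for 0 of 22180 genes in hypothalamus (0%; 245 genes had an unadjusted limma p under 0.05) and for 0 in pituitary (0%; 294 genes). Stress arrays lay wholly above control arrays in hypothalamus for 2 members, Ptgs2 and Ereg, and groups did not overlap in either direction for 4.54% of all genes. In pituitary this held for 0 of the 9 members and for 6.08% of all genes. Ptgs2 in hypothalamus read 4.76, 4.83 and 5.62 in the high mouse, low mouse and pool of the stress group, against 4.15, 4.36 and 4.49 in those of the control group. The stressed pool was the highest, and both stressed single mice still exceeded every control array. The difference was 0.73 (SE 0.26), with a limma p of 0.0197 before and 1 after adjustment. It was 0.46 without the stressed pool. Ereg in hypothalamus read 5.15, 5.09 and 6.41 in stress against 4.81, 4.96 and 5.09 in control, a difference of 0.60 (SE 0.34), and of 0.24 in single mice.

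In pituitary all 9 members had positive mean differences, from 0.06 for Btc to 0.52 for Ptgs2, beside 43.6% positive over all genes. In single mice 5 of 9 were positive: Ereg was at -0.66, Tnfaip6 at -0.28, Il6 at -0.17 and Ptgs2 at -0.14. The stressed pituitary pool read 6.35 for Ereg, against 4.56 to 5.33 in the other 5 pituitary arrays, and 5.07 for Tnfaip6, against 3.12 to 4.01. The stressed hypothalamus pool read 6.41 for Ereg, against 4.81 to 5.15 in the other 5, and 5.62 for Ptgs2, against 4.15 to 4.83. In the second Ereg cluster the stressed pools read 4.70 in pituitary and 4.82 in hypothalamus, inside the range of the other arrays. The same pools were high in the luteal markers. The mean of 7 such markers was 8.12 in the stressed hypothalamus pool against 5.02 to 6.08 in the other 5 arrays, and 9.05 in the stressed pituitary pool against 5.21 to 5.94. Cyp11a1, the first enzyme of steroid synthesis, read 10.52 against 4.10 to 6.99 in hypothalamus, and 11.34 against 3.51 to 5.31 in pituitary. The part of ovarian transcripts in the members' values of these pools was not tested.

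**Figure D5:**
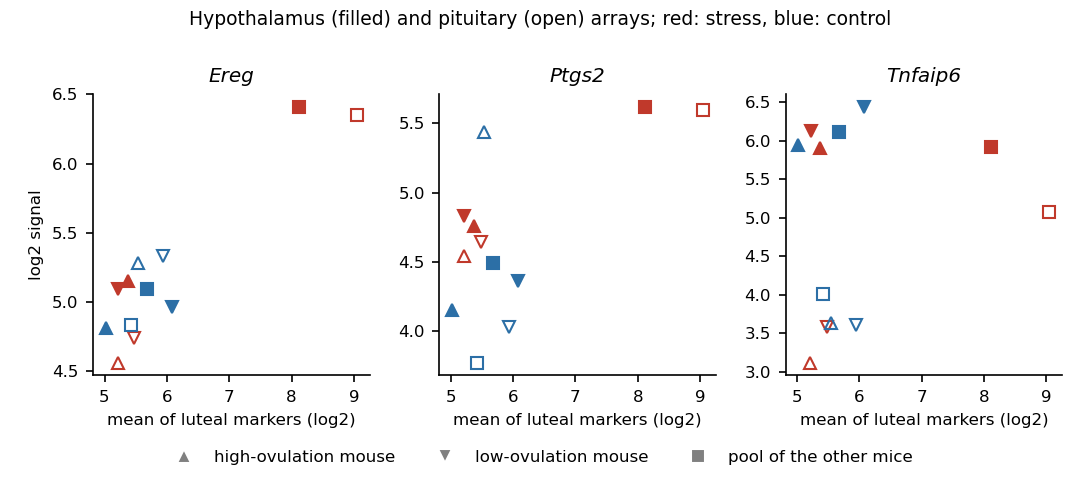
Log2 signal of Ereg, Ptgs2 and Tnfaip6 against the mean log2 signal of 7 luteal markers in the 6 hypothalamus (filled) and 6 pituitary (open) arrays, stress in red and control in blue. The stressed pools stand alone at the right (marker means of 8.12 in hypothalamus and 9.05 in pituitary), where Ereg reads 6.41 and 6.35.

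Whether stress acted differently in ovary was tested as the difference of the stress effects. It was 0.53 (SE 0.63) for Ptgs2 and 0.43 (SE 0.53) for Ereg against hypothalamus, and 0.75 (SE 0.63) and 0.96 (SE 0.53) against pituitary, with an adjusted p of 1 in limma for each. In limma, 0 genes (0%) passed in either interaction, and 496 and 805 genes had an unadjusted p under 0.05. In single mice the differences against pituitary were 1.82 for Ptgs2 and 1.93 for Ereg (adjusted p = 0.99 in limma for both).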

How the data were processed

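RNA of ovary, hypothalamus and pituitary was hybridised to Affymetrix Mouse Gene 2.0 ST arrays. Per the labels' protocols, Trizol was used for extraction and the label was biotin. The values are log2 signals deposited by the authors, 1 for each of 41345 transcript clusters and 18 arrays. The submitters' processing notes name Transcriptome Analysis Console. How signals were background-corrected, normalized or filtered is not given in the sources used here, and that the scale is log2 was inferred from the range of the values. Every column belonged to a sample (0 did not).

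The platform annotation gave 1 gene to 23521 clusters, several to 1814 and none to 16010. Clusters with several genes were left out, and of 1082 genes with more than 1 cluster the one with the highest mean was used, which left 22180 genes. By Entrez number, 23328 clusters were found in the GRCm38.p6 gene table, with 0 symbols changed. Array medians ran from 4.75 to 5.03. No filter on low values was applied.

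Tests were run with limma 3.58.1 in R 4.3.3 (lmFit, eBayes) over all genes, two-sided, with Benjamini-Hochberg adjustment and a threshold of 0.05. Stress against control was fitted on the 6 arrays of a tissue without a block. High against low used class and treatment as terms. Tissues and interactions were fitted on all 18 arrays with the animal or pool as a random block (correlation 0.27). Same-class arrays of stress and control deviated together from their group means (correlations of 0.359 to 0.727, against -0.521 to 0.321 between classes). This pairing comes from the class names, not from shared animals, and part of it is that pools differ from single mice.

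All members are named. From each of the 5 pathway lists, up to 4 genes of smallest p per comparison could be named, and Star, Cyp11a1, Prl, Fshr, Gatm and Amh stand for marker lists (the last 3 were chosen after their values were seen). For each member with an ovary range above 1, the 3 genes closest in pattern were named, among genes at or above the median ovary level without a predicted or clone name. The members, lists and motifs were chosen with earlier results of these data known. The fits were tested on simulated data. Alternatives were the class or animal block, quantile normalization, median centring, leaving out dim genes, single mice, each array or animal left out, array weights, trended robust moderation and the mean of a gene's clusters.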

Additional observations from a re-analysis of the deposited data

How the results depend on the processing

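Among 746 recomputed values of single members, 683 kept their direction and their side of the threshold, 51 changed sign, 9 lost a call and 3 gained one. The positive ovary differences of Ereg, Ptgs2, Il6 and Btc and the high minus low difference of Edn2 kept their sign in every alternative that tested them, and none of them passed in any. The replicate block, with ovulation class as the block, left the ovary stress comparison at 0 genes and changed no member's call, and for the tissue fits the block changed no member's call other than that of Has2 against pituitary.

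In single mice alone, the stress difference turned to -0.02 for Has2 and -0.05 for Ptx3 in ovary, to -0.02 for Has2 in hypothalamus, and in pituitary to -0.66 for Ereg, -0.14 for Ptgs2, -0.28 for Tnfaip6 and -0.17 for Il6. With array weights it was -0.46 for Ereg and -0.05 for Tnfaip6 in pituitary. The cause was not tested.

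Leaving out 1 array at a time gave both signs for several members. For stress in ovary these were Has2 (-0.09 to 0.52), Tnfaip6 (-0.18 to 0.47), Ptx3 (-0.08 to 0.12), Edn2 (-0.64 to 0.24) and Snap91 (-0.21 to 0.01). In hypothalamus they were Btc (-0.18 to 0.02), Has2 (-0.03 to 0.29), Ptx3 (-0.02 to 0.22), Il6 (-0.16 to 0.45) and Edn2 (-0.16 to 0.13). In pituitary they were Ereg (-0.50 to 0.40), Btc (-0.07 to 0.19), Has2 (-0.07 to 0.24), Tnfaip6 (-0.41 to 0.57) and Il6 (-0.10 to 0.49). For high minus low they were Ereg (-1.03 to 0.82), Btc (-0.10 to 0.08), Ptgs2 (-0.67 to 1.27), Has2 (-0.49 to 0.06), Tnfaip6 (-0.39 to 0.32), Ptx3 (-0.25 to 0.34), Il6 (-0.41 to 0.28) and Snap91 (-0.01 to 0.40). The stress effect in ovary minus that in hypothalamus ran from -0.10 to 1.09 for Ptgs2 and from -0.12 to 0.95 for Ereg.

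Unadjusted counts of genes with a p under 0.05 moved several-fold over the alternatives. With dim genes left out, 11090 genes were tested rather than 22180, so those counts have a smaller base. For stress in ovary the counts ran from 284 (dim genes left out) to 2198 (class as a block). The main fit gave 592, with 374 without the control low mouse and 1388 without the control pool. In hypothalamus they ran from 15 (dim genes left out) to 923 (class as a block), and in pituitary from 50 (dim genes left out) to 3135 (array weights), with 956 without the stressed pool. Genes past the adjusted threshold between tissues numbered 10459 against hypothalamus and 9086 against pituitary, of 22180 tested. With dim genes left out they numbered 7674 and 6760 of 11090 tested, a larger share. High minus low in ovary called 6 genes with trended robust moderation and from 0 to 27 when 1 array was left out (27 without the control high mouse, 1 without the stressed low mouse). The interaction of ovary and hypothalamus called 1 gene in single mice and from 0 to 1 when 1 animal or pool was left out, and that of ovary and pituitary from 0 to 1, in both cases without the control pool. No member was among the genes called in these. With dim genes left out, 3 members remained to be tested between tissues, and all 3 passed against hypothalamus and against pituitary. Has2 passed against hypothalamus after quantile normalization (0.43), after median centring (0.49) and without the stressed high mouse (0.58). The number of arrays, with 1 mouse for each high and low value, limits all of these comparisons.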

Other observations

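The ovary patterns of the 6 members with a range above 1 were compared with those of 10434 genes (20.5% of all genes had such a range). The measure was the root mean square distance between centred log2 signals over the 6 ovary arrays. Only genes with a mean ovary level at or above the median of all genes, and without a predicted or clone name, were searched. Dim genes could therefore not be neighbours, also for the dim members Il6 and Has2. The distances are descriptions over arrays that share mice and pools with each member. Closest to Ereg were Prkar2b, a regulatory subunit of the cyclic AMP-dependent protein kinase (distance 0.34), Trip13, an ATPase of meiosis and mitosis (0.35), and Epc2, a chromatin protein (0.37). Prkar2b was higher under stress by 0.17 (high), 1.11 (low) and 0.57 (pool). Closest to Ptgs2 were Nipal1 (0.44), Ttpa, the transfer protein for vitamin E (0.50), and Prkx, a protein kinase (0.52). Nipal1 differed by 0.28 (high), 1.23 (low) and 0.16 (pool). These genes were chosen for their likeness over these same arrays, so a shared class pattern follows from the choice.

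The distance is not scaled for a gene's range, so it tends to be smaller where the range is smaller. The remaining members, with smaller ranges than Ereg and Ptgs2, had closer neighbours. For Tnfaip6 these were Clec12a (0.06), Tmem50b (0.07) and Slc16a7 (0.08), for Has2 Yy1 (0.12), Tmem170b (0.14) and Serp1 (0.15), for Il6 Aftph (0.17), Il13ra1 (0.17) and Cyb5b (0.18), and for Edn2 Zfas1 (0.14), Cisd3 (0.19) and Rbis (0.22).  The distance between Ereg and Ptgs2 was 0.63. Among the members, Ereg lay closer to Btc (0.53) and Ptx3 (0.62), and Ptgs2 closer to Il6 (0.60).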
